A study of Mus musculus with 13 samples.

Results

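Dbp, Tef and Hlf encode the 3 PAR bZIP transcription factors, and Nfil3 encodes the repressor that binds the same DNA element. These 4 genes were taken by symbol from the 24061 gene symbols counted in each heart, and reads were found for each of them in all 13 libraries. They were chosen by earlier results of these same data, in which clock genes differed between genotypes, so their differences between genotypes, title prefixes and noted libraries are given as a description and support nothing further. The hearts came from male C57BL/6N mice of 13 weeks on chow. They carried the E3A allele of Cpt1b, a change in the muscle carnitine palmitoyltransferase that makes it less sensitive to its inhibitor malonyl-CoA, on neither chromosome (WT/WT, 4 hearts), on 1 (WT/E3A, 4 hearts) or on both (E3A/E3A, 5 hearts). Poly(A) RNA of each heart gave 1 library of 2.01e+07 to 5.26e+07 counted reads. The labels do not give the hour at which the hearts were collected, and for genes with a daily rhythm a difference in that hour and a difference between genotypes cannot be told apart.

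A note in the labels marks 4 libraries as possible outliers, without saying what it rests on. They are E3A/E3A replicates 1 and 2 and the first replicate of each other genotype. Titles also carry a prefix of unstated meaning. All 3 libraries of prefix C2 (WT/WT replicate 1, E3A/E3A replicates 1 and 2) are noted ones, and prefix C6 holds WT/WT replicates 3 and 4 only. C3 holds E3A/E3A replicates 3 and 5 and the second replicate of each other genotype, and C4 holds the other 3 WT/E3A hearts and E3A/E3A replicate 4. All 10 cardiomyocyte markers were detected in the hearts. Their summed level was 148455 to 208002 counts-per-million (CPM) in the 4 noted libraries and 102047 to 115050 CPM in the other 9. Fibroblast markers (8 genes) summed to 1856 to 4347 CPM in the noted libraries and 1210 to 1405 CPM in the other 9. The list did not move as one: with genotype in the model Myl3 was 1.60 higher on the log2 scale in the noted libraries, and Pln fell by 2.19 and Ttn by 0.61. The genotype comparisons of the 4 genes are therefore given for all 13 libraries and for the 9 without the note, and gene lists for the 9. In RNA from bulk heart tissue, fewer cells of a type and less RNA per cell cannot be told apart.

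DBP (D-box binding protein), TEF (thyrotroph embryonic factor) and HLF (hepatic leukaemia factor) bind DNA as dimers at the D-box and activate nearby genes, and NFIL3, also called E4BP4, represses through the same element. The core clock drives them: BMAL1 (encoded by Arntl) pairs with CLOCK or NPAS2 at E-boxes and switches on Dbp and the Per, Cry and Rev-erb genes. The Rev-erb receptors, encoded by Nr1d1 and Nr1d2, repress Arntl and Nfil3. In heart as in other tissues, Dbp and Nfil3 therefore tend to peak at opposite times of day. The PAR bZIP factors are known as output genes of the clock, because their targets in metabolism and detoxification follow the rhythm without being part of the core loop.

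The 4 genes lie on 4 chromosomes of the GRCm38 mouse genome: Dbp at chr7:45705100-45710203 on the plus strand, Tef at chr15:81802673-81826863 on the plus strand, Hlf at chr11:90336535-90390917 on the minus strand and Nfil3 at chr13:52967209-52982878 on the minus strand. Promoter windows of 250 bases before and 50 bases after an annotated RefSeq start (GRCm38.p6) were found for all 4 and were searched on both strands. The Nfil3 window lies around a start at chr13:52981039 and does not reach the 5′ end of the gene at 52982878. The Dbp window lies around a start at chr7:45705247, inside the gene bounds above. The motifs were the E-box (CACGTG), an E-box variant (CACGTT), the D-box (TTATGTAA or TTACGTAA) and the cyclic AMP response element (TGACGTCA). The E-box was in 8.09% of 27025 genes with a window, the variant in 5.44%, the D-box in 1.23% and the cyclic AMP response element in 2.03%. Of the 4 genes, Tef held an E-box at each of its 2 starts and Hlf held a cyclic AMP response element. The windows of Dbp and Nfil3 held none of these letters, which says nothing of elements elsewhere in the genes. The sequences below are those with a match, and they are printed 5′ to 3′ on the strand of the gene with the motif in capitals. Per3 is added because its level followed that of Dbp, Tef and Hlf most closely among the core clock genes over the 9 libraries without the note (below). It was the 1 core clock repressor of 8 with a window that held a D-box, and it held 2. A D-box was in 0 of the 14 reported PAR bZIP targets with a window (list below). The same held for 0 of 9 other rhythmic output genes and 0 of the 4 genes.
Tef, first start, chr15:81802534-81802563, plus strand, E-box at -127: gtgctgtggctcCACGTGctgcagctggca
Tef, second start, chr15:81811164-81811413, plus strand, E-box at -138: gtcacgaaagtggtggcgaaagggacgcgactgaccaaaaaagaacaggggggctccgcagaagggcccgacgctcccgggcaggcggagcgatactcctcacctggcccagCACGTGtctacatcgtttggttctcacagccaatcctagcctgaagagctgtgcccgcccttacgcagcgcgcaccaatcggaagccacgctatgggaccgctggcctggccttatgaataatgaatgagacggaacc
Hlf, chr11:90390918-90391167, minus strand, cyclic AMP response element at -9: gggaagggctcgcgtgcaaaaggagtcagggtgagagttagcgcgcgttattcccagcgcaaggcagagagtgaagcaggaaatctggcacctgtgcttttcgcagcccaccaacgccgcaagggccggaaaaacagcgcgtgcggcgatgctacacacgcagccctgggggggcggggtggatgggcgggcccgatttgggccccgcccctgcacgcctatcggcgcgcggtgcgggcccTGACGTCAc
Per3, chr4:151044666-151044915, minus strand, D-boxes at -205 and -158: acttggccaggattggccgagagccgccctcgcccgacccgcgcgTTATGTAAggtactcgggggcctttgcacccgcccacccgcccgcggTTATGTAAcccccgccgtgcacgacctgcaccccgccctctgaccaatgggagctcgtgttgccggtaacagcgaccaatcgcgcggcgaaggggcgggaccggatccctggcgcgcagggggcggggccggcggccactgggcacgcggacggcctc
Distances are of the first base of the motif from the annotated start. The first Tef window lies inside annotated exons of Tef and of the antisense gene Gm17597. Sphk2, on the opposite strand, overlaps the 3′ end of Dbp, and the sources used here do not give the strand setting of the authors' counting. Reads of these overlaps cannot be assigned, and Gm17597 was not analysed here. Sphk2 had 39.5 to 57.8 CPM in the noted libraries and at most 37.3 CPM in the others. Its part in the Dbp values was not tested.

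By its mean Tef was the most abundant of the 4 per length, though not in every heart: in WT/WT replicate 1 Nfil3 stood above it. Over the 13 hearts its mean level was 15.0 CPM per kilobase of exon, against 10.5 for Nfil3, 7.93 for Dbp and 3.71 for Hlf. The ranges over single hearts show how far this order holds: Tef (12.5 to 20.6 CPM per kilobase) overlapped with Nfil3 (6.36 to 15.5) and just touched Dbp (4.14 to 12.8), while Hlf (1.42 to 5.97) stayed below Nfil3 and Tef in every heart. Reads per library ran from 2630 to 4712 for Tef, 327 to 1216 for Hlf, 308 to 1046 for Dbp and 275 to 1356 for Nfil3. The levels that follow are CPM per gene and compare hearts, not genes.

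Dbp, the PAR bZIP gene known for the deepest daily rhythm, had 24.2, 18.9, 17.4 and 13.4 CPM in WT/WT replicates 1 to 4. In WT/E3A replicates 1 to 4 it had 34.9, 38.3, 27.2 and 38.0 CPM. In E3A/E3A replicates 1 to 5 it had 22.2, 23.1, 22.0, 16.8 and 12.4 CPM. Every WT/E3A heart, the noted one included, was above every homozygous heart of either kind, and the 2 homozygous groups overlapped over nearly their whole range.

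Tef had 104, 108, 103 and 98.1 CPM in WT/WT replicates 1 to 4 and 129, 137, 129 and 162 CPM in WT/E3A replicates 1 to 4. E3A/E3A replicates 1 to 5 had 99.8, 128, 112, 112 and 111 CPM. The 4 WT/E3A hearts again stood highest, although E3A/E3A replicate 2, a noted library, came close to the lowest of them. Without the noted libraries the 3 groups did not overlap, with WT/WT lowest, E3A/E3A next and WT/E3A highest.

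Hlf had 9.49 CPM in WT/WT replicate 1 and 25.4, 24.1 and 23.2 CPM in replicates 2 to 4. WT/E3A replicate 1 had 11.2 CPM and replicates 2 to 4 had 35.0, 34.0 and 39.9 CPM. In E3A/E3A, 14.7 and 17.8 CPM were found in replicates 1 and 2, while replicates 3 to 5 had 30.3, 28.7 and 28.7 CPM. The 4 noted libraries were lower than all 9 others, whatever the genotype. Among the 9, Hlf fell in the same order as Tef, with no overlap between groups: WT/WT, then E3A/E3A, then WT/E3A.

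Nfil3, the repressor, had 31.3, 13.8, 17.6 and 18.9 CPM in WT/WT replicates 1 to 4. It had 24.7, 12.9, 15.9 and 15.2 CPM in WT/E3A replicates 1 to 4, and 29.7, 23.0, 17.4, 25.7 and 29.3 CPM in E3A/E3A replicates 1 to 5. The highest heart of each genotype was a noted one, while the other noted E3A/E3A heart, replicate 2, lay below replicates 4 and 5. Without the noted libraries, the 3 WT/E3A hearts were below the 3 E3A/E3A hearts and overlapped with WT/WT, so that Nfil3 did not share the position of WT/E3A at the top.

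**Figure D1:**
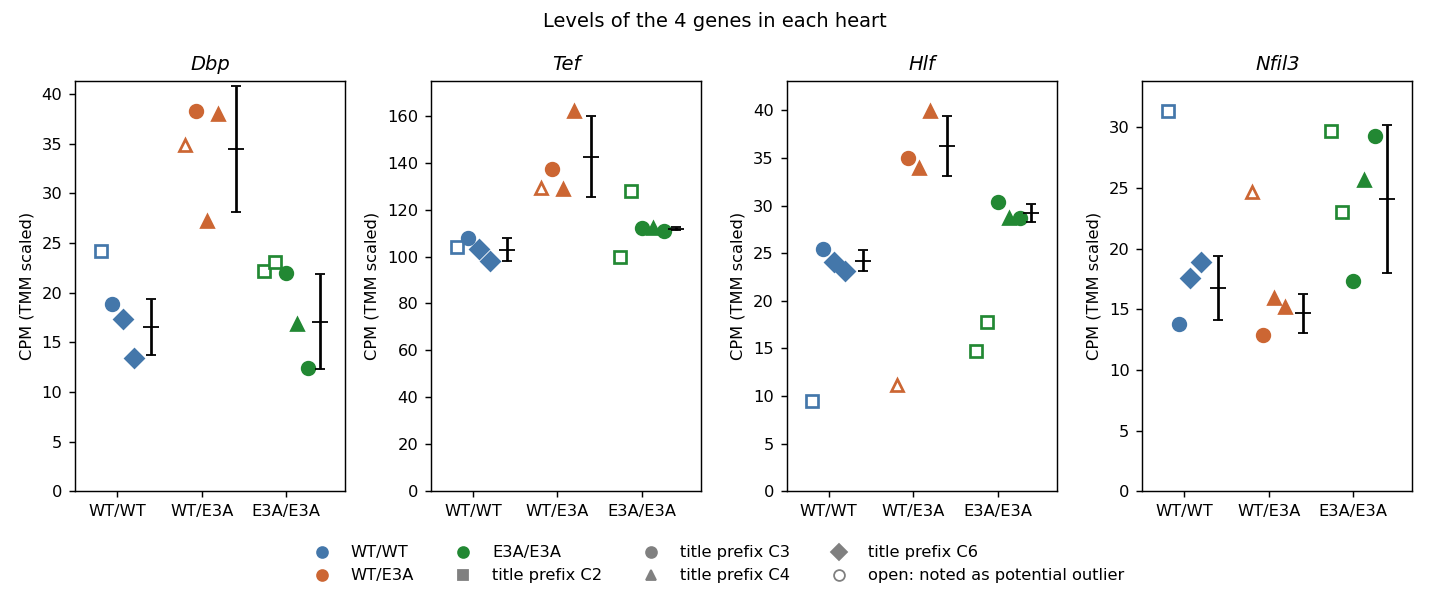
Level of Dbp, Tef, Hlf and Nfil3 in each of the 13 hearts, as CPM after TMM scaling on an axis from 0, by genotype (colour) and title prefix (shape), with open symbols for the 4 noted libraries. Black bars are the mean ± SD of the 3 hearts per genotype without the note. WT/E3A hearts are highest for Dbp and Tef, while for Hlf the 4 open symbols lie between 9.49 and 17.8 CPM and the 9 filled ones between 23.2 and 39.9 CPM.

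Whether 1 copy of the E3A allele goes with another level than none was addressed by comparing WT/E3A with WT/WT. In the 9 libraries Dbp, Hlf and Tef were higher in WT/E3A, Dbp by 2.08-fold. Dbp averaged 34.5 CPM (SD 6.32, n = 3) in WT/E3A, against 16.6 CPM (SD 2.80, n = 3) in WT/WT, a log2 fold change of 1.05 (SE 0.25). Hlf averaged 36.3 CPM (SD 3.16, n = 3) against 24.2 CPM (SD 1.13, n = 3), a log2 fold change of 0.58 (SE 0.07). Tef averaged 143 CPM (SD 17.2, n = 3) against 103 CPM (SD 4.82, n = 3), a log2 fold change of 0.47 (SE 0.07). Nfil3 stood at 14.7 CPM (SD 1.59, n = 3) against 16.8 CPM (SD 2.65, n = 3), with a log2 fold change of -0.18 (SE 0.22) that is within its error. Groups did not overlap for Dbp, Tef and Hlf, as for 12.7% of all genes tested.

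Over all 14373 genes tested in the 9 libraries, edgeR's quasi-likelihood test with Benjamini-Hochberg adjustment called 3 genes in WT/E3A against WT/WT, or 0.0209%. They were Hlf (adjusted p = 0.00927), Arntl and Npas2, and Hlf had the smallest p of all genes. Tef (adjusted p = 0.0504) and Dbp (adjusted p = 0.585) did not pass with edgeR. With DESeq2, 3 of the 4 genes passed (Dbp, Tef and Hlf) among 19 called. The call of Hlf ended without WT/WT replicate 3 (0.58, edgeR adjusted p = 0.108) or WT/WT replicate 4 (0.55, edgeR adjusted p = 0.0718), and Tef passed without WT/WT replicate 2 (0.51, edgeR adjusted p = 0.0447) or WT/E3A replicate 3 (0.54, edgeR adjusted p = 0.0283). With the title prefix as a block, where the comparison rests on WT/WT replicate 2 as the single WT/WT heart, edgeR called 0 genes and Hlf stood at 0.50 (adjusted p = 0.912).

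With all 13 libraries the log2 fold changes of WT/E3A against WT/WT were 0.91 (SE 0.22) for Dbp, 0.44 (SE 0.10) for Tef, 0.55 (SE 0.40) for Hlf and -0.24 (SE 0.27) for Nfil3. The values were close to those of the 9 libraries, but the error of Hlf was several times larger, since each group then held 1 heart with little Hlf. Groups did not overlap for Dbp and Tef, as for 1.12% of all genes. Of 14387 genes tested, edgeR called 0 (0%), members included, with 117 at an unadjusted p under 0.05. Hearts of a genotype varied by 28.9% in the 13-library fit and by 7.85% in the 9-library fit (edgeR's common biological coefficient of variation).

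The comparison of E3A/E3A with WT/E3A, which sets 2 copies of the allele against 1, shares the WT/E3A hearts with the comparison above. Its values are therefore not a second observation of them. In the 9 libraries Dbp was lower in E3A/E3A, with 17.1 CPM (SD 4.82, n = 3) and a log2 fold change of -0.99 (SE 0.25). Tef had 112 CPM (SD 0.745, n = 3) and a log2 fold change of -0.35 (SE 0.07), and Hlf had 29.2 CPM (SD 0.952, n = 3) and -0.31 (SE 0.07). Nfil3 went the other way, with 24.1 CPM (SD 6.13, n = 3) in E3A/E3A and a log2 fold change of 0.70 (SE 0.21). All 4 genes had groups that did not overlap, as had 11.2% of all genes tested, and edgeR called 0 of the 4, beside 0.0417% of all genes. All 4 had an unadjusted p under 0.05, as did 993 of all genes tested, and DESeq2 called 3 of the 4 (Dbp, Tef and Nfil3) among 33 genes. With 13 libraries the log2 fold changes were -0.85 (SE 0.21) for Dbp, -0.31 (SE 0.10) for Tef, -0.32 (SE 0.38) for Hlf and 0.53 (SE 0.26) for Nfil3. Dbp and Tef were then the 2 of the 4 whose groups did not overlap, as was so for 1.01% of all genes. edgeR called 0 members there and 0% of genes (208 at an unadjusted p under 0.05, 2 members among them).

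Between the 2 homozygous genotypes Dbp and Tef had smaller log2 fold changes than in the 2 comparisons with WT/E3A. For Hlf in the 9 libraries the size was close to that of E3A/E3A against WT/E3A (-0.31, SE 0.07). In E3A/E3A against WT/WT with 9 libraries the log2 fold change was 0.06 (SE 0.25) for Dbp, whose groups overlapped and whose sign turned when the prefix was a block (-0.084). It was 0.12 (SE 0.07) for Tef and 0.27 (SE 0.07) for Hlf, both with every E3A/E3A heart above every WT/WT heart (14% of all genes had groups that did not overlap), and 0.52 (SE 0.21) for Nfil3, whose groups overlapped. edgeR called 0 of the 4, beside 0.271% of all genes (39 genes). Hlf had adjusted p = 0.176 (edgeR), and Hlf and Nfil3 were the 2 of the 4 with an unadjusted p under 0.05, as were 1105 genes in all. With 13 libraries the values were 0.06 (SE 0.21) for Dbp, 0.13 (SE 0.10) for Tef, 0.23 (SE 0.38) for Hlf and 0.29 (SE 0.26) for Nfil3, and the groups overlapped for all 4 (0.855% of all genes had groups that did not). No member was called by edgeR or had an unadjusted p under 0.05 there, while 0.00695% of all genes (1 gene) was called.

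**Figure D2:**
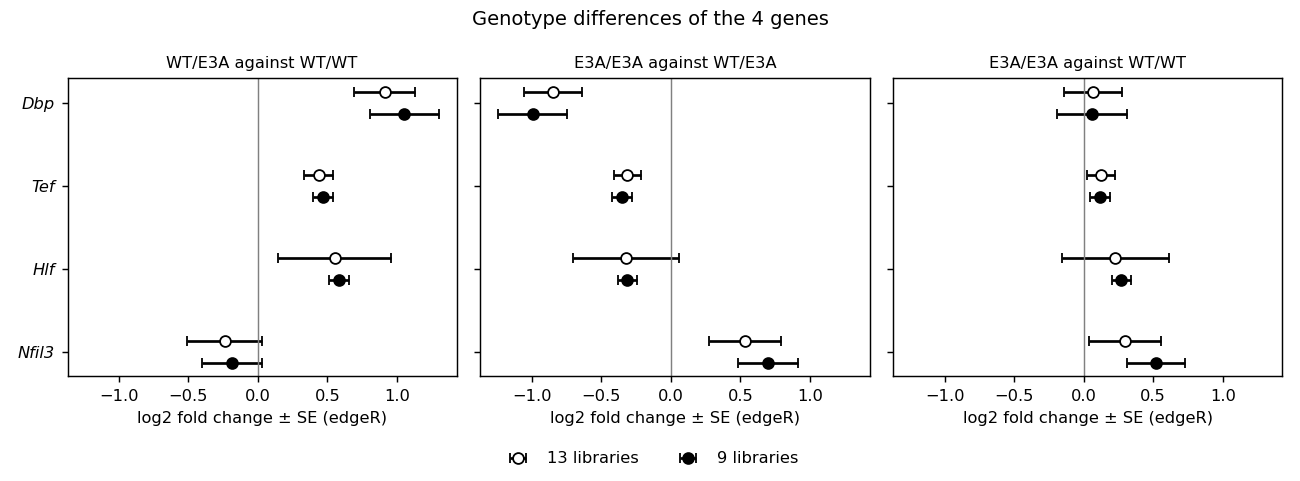
Log2 fold change ± SE (edgeR) of the 4 genes in the 3 genotype comparisons, with all 13 libraries (open) and with the 9 without the note (filled). Dbp, Tef and Hlf lie to the right of 0 for WT/E3A against WT/WT and to the left for E3A/E3A against WT/E3A, and Nfil3 lies on the opposite side in both. The bars of Hlf shrink from 0.40 to 0.07 in the first comparison when the noted libraries are left out.

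Within a title prefix, the differences of the 9 libraries that involve WT/E3A had the sign of the values above. Within C3, 1 WT/E3A heart against 1 WT/WT heart differed in mean log2 CPM by 1.02 for Dbp, 0.35 for Tef, 0.46 for Hlf and -0.10 for Nfil3. Within C3, 2 E3A/E3A hearts against the same WT/E3A heart differed by -1.21 for Dbp, -0.30 for Tef, -0.25 for Hlf and 0.81 for Nfil3. Within C4, and without the noted library, 1 E3A/E3A heart against 2 WT/E3A hearts differed by -0.93 for Dbp, -0.36 for Tef, -0.36 for Hlf and 0.72 for Nfil3. With the noted WT/E3A heart added, the value of Hlf in C4 turned to 0.21, the others being -0.97, -0.31 and 0.50. For E3A/E3A against WT/WT, 2 hearts against 1 within C3 differed by -0.19 for Dbp, 0.05 for Tef, 0.22 for Hlf and 0.71 for Nfil3, and within C2, where all are noted, by -0.10, 0.12, 0.77 and -0.26. These differences within a single prefix were not tested one by one. As a question of its own, whether any prefix differed once genotype was in the model, edgeR called 0 of the 4 genes with 13 libraries (0% of all genes called, 4130 at an unadjusted p under 0.05) and 0 of the 4 with 9 libraries (0.0209% of all genes called, 535 at an unadjusted p under 0.05). Without WT/E3A replicate 1 the 13-library fit called Hlf, among 8145 genes, and without E3A/E3A replicate 5 the 9-library fit called Nfil3, among 65 genes. With WT/E3A replicate 1 left out, prefix C2 and the note mark the same hearts and cannot be told apart. The comparison by the note itself called 75.2% of all genes (below).

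Of the 4 genes, Hlf differed most between noted and other libraries. With genotype in the model, Hlf was 1.21 lower on the log2 scale in the 4 noted libraries (-1.21, SE 0.12, edgeR adjusted p = 1.11e-06), lower in 4 of 4 than in any of the other 9. Nfil3 was 0.53 higher (SE 0.15, edgeR adjusted p = 0.00633). Dbp stood at 0.33 (SE 0.15, edgeR adjusted p = 0.0502) and Tef at -0.03 (SE 0.08, edgeR adjusted p = 0.756). So 2 of the 4 genes were called, beside 75.2% of all genes tested, and a share near or below that of all genes is no result about these 4. The call of Nfil3 ended without WT/WT replicate 1, the library with the most Nfil3 (0.38, edgeR adjusted p = 0.0674). Dbp passed without E3A/E3A replicate 3 (0.42, edgeR adjusted p = 0.0162), WT/E3A replicate 1 (0.45, adjusted p = 0.0262), WT/E3A replicate 2 (0.36, adjusted p = 0.0382) or WT/E3A replicate 4 (0.38, adjusted p = 0.0334). Of the 10 core clock repressors 7 were called here as well, 4 higher and 3 lower, and activators were called too. Clock fell by 1.51, Nr1d2 by 1.06, Rora by 0.99, Npas2 by 0.82, Bhlhe41 by 0.76 and Per3 by 0.26 on the log2 scale. Cry1 rose by 0.41, Bhlhe40 by 0.40, Cry2 by 0.25 and Nr1d1 by 0.19. The edgeR adjusted p of these genes ran from 1.31e-06 to 0.0480. The summed cardiomyocyte and fibroblast markers were higher in the same libraries, as given above. Of the 8 fibroblast markers 4 rose, such as Col1a1 (1.95), and 4 fell, such as Lum (-1.76) and Dcn (-1.19), all called by edgeR. Atrial markers (7 genes) summed to 460 to 737 CPM in the noted and 171 to 523 CPM in the other libraries, and smooth muscle markers (6 genes) to 647 to 844 and 447 to 536 CPM. Endothelial markers (8 genes) summed to 1500.4 to 1848 and 1255 to 1593 CPM, macrophage markers (8 genes) to 224 to 257 and 191 to 242 CPM, white adipocyte markers (8 genes) to 34.8 to 64.4 and 31.3 to 42.3 CPM and epicardial markers (6 genes) to 9.02 to 11.9 and 5.77 to 15.6 CPM. Several of these lists did not move as one either. Of the macrophage markers 3 were higher and 5 lower (2 and 3 called), such as C1qa (1.17) and Cd68 (-1.75). Endothelial markers split into 4 higher and 4 lower (4 and 2 called), and smooth muscle markers into 4 and 2 (3 and 1 called). Lymphocyte and natural killer cell markers summed to 1.89 to 5.32 CPM over all 13, and 4 of 7 blood markers, the haemoglobin genes Hba-a1, Hba-a2, Hbb-bs and Hbb-bt, were at 0 in all. The part of these in the levels of Hlf and Nfil3 was not tested. Among the 9 libraries without the note, cardiomyocyte markers summed to 102047 to 111598 CPM in WT/WT, 108803 to 115050 CPM in WT/E3A and 108135 to 110846 CPM in E3A/E3A. Smooth muscle markers summed to 447 to 464 CPM in WT/WT, 471 to 526 CPM in WT/E3A and 498 to 536 CPM in E3A/E3A, so that WT/WT lay below both, and 6 of 6 were higher in WT/E3A than in WT/WT (median 0.22, 0 called by edgeR, 3 at an unadjusted p under 0.05). Fibroblast markers summed to 1210 to 1229 CPM in WT/WT, 1227 to 1370 CPM in WT/E3A and 1251 to 1405 CPM in E3A/E3A, WT/WT lying below E3A/E3A. The part of these in the genotype differences of the 4 genes was not tested.

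The genes upstream of the PAR bZIP factors were taken from lists drawn up with results of these data known. Among the core clock activators, 2 were lower in WT/E3A than in WT/WT in the 9 libraries and were called, Arntl and Npas2, the partners that bind the E-box. Arntl had 28.0, 34.7 and 32.7 CPM in WT/WT replicates 2 to 4, 19.6, 19.6 and 15.7 CPM in WT/E3A replicates 2 to 4, and 31.2, 31.2 and 26.7 CPM in E3A/E3A replicates 3 to 5. The WT/E3A hearts were thus below all homozygous hearts in Arntl, where they were above them in Dbp, Tef and Hlf. For WT/E3A against WT/WT this came to -0.79 on the log2 scale (SE 0.10, edgeR adjusted p = 0.0258), and for E3A/E3A against WT/E3A to 0.70 (SE 0.10, edgeR adjusted p = 0.0434). Npas2, which can stand in for Clock, averaged 7.05 CPM (SD 0.339, n = 3) in the heterozygous hearts, against 11.2 CPM (SD 1.11, n = 3) for WT/WT and 10.9 CPM (SD 0.510, n = 3) for E3A/E3A. Its log2 fold changes were -0.67 (SE 0.09, edgeR adjusted p = 0.0258) and 0.63 (SE 0.09, edgeR adjusted p = 0.0391). Clock (-0.12), Rora (0.12) and Rorb (0.01) did not pass in WT/E3A against WT/WT.

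These 2 calls rest on few hearts. For WT/E3A against WT/WT, both Arntl and Npas2 lost their calls in 6 of the 9 fits without 1 library: without any 1 WT/E3A heart, without WT/WT replicate 3 or 4, or without E3A/E3A replicate 4 (edgeR adjusted p from 0.0637 to 0.234). For E3A/E3A against WT/E3A both lost them in 7 of 9: in the same 6 fits, and without E3A/E3A replicate 3 (edgeR adjusted p from 0.0561 to 0.338). Their log2 values over the 9 fits stayed between -0.88 and -0.61 in the first comparison and between 0.59 and 0.77 in the second. With the prefix as a block they were -0.61 and -0.52 (edgeR adjusted p = 0.999789 for each) in the first, and 0.69 and 0.64 (edgeR adjusted p = 0.0783 for each) in the second. With all 13 libraries the values of Arntl were -0.64 and 0.60 and those of Npas2 -0.66 and 0.58, and edgeR called neither. The level of Arntl in the noted WT/WT replicate 1 was 20.8 CPM, near the 19.4 CPM of the noted WT/E3A replicate 1.

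Of the 10 core clock repressors, 8 were higher and 2 lower in WT/E3A than in WT/WT with 9 libraries, with a median log2 fold change of 0.47. Over all genes the share higher was 49.5% and the median -0.00. edgeR called 0 of the 10, and 5 had an unadjusted p under 0.05, as did 914 of all 14373 genes tested. The values were 1.82 (SE 0.68) for Per2, 0.88 (SE 0.20) for Ciart, 0.76 (SE 0.52) for Per1, 0.76 (SE 0.12) for Per3, 0.51 (SE 0.28) for Bhlhe40, 0.43 (SE 0.08) for Nr1d2 and 0.24 (SE 0.09) for Cry2. Nr1d1 stood at 0.08 (SE 0.11), Bhlhe41 at -0.00 (SE 0.15) and Cry1 at -0.14 (SE 0.09). Per3, the period gene with the weakest part in the core loop, had 25.7, 21.7 and 20.1 CPM in WT/WT replicates 2 to 4 and 38.0, 34.3 and 42.8 CPM in WT/E3A replicates 2 to 4. E3A/E3A replicates 3 to 5 had 27.7, 25.9 and 21.6 CPM, so that Per3, like Dbp, set the WT/E3A hearts apart from both other groups while those overlapped. It did not pass in edgeR (adjusted p = 0.163) and was called by DESeq2, and by edgeR without WT/WT replicate 2 (0.88, adjusted p = 0.0171) or E3A/E3A replicate 5 (0.76, adjusted p = 0.0286). In E3A/E3A against WT/E3A, which shares the WT/E3A hearts, 9 of the 10 repressors were lower (median -0.41, all genes 0.00), with 0 called by edgeR and 5 at an unadjusted p under 0.05.

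**Figure D3:**
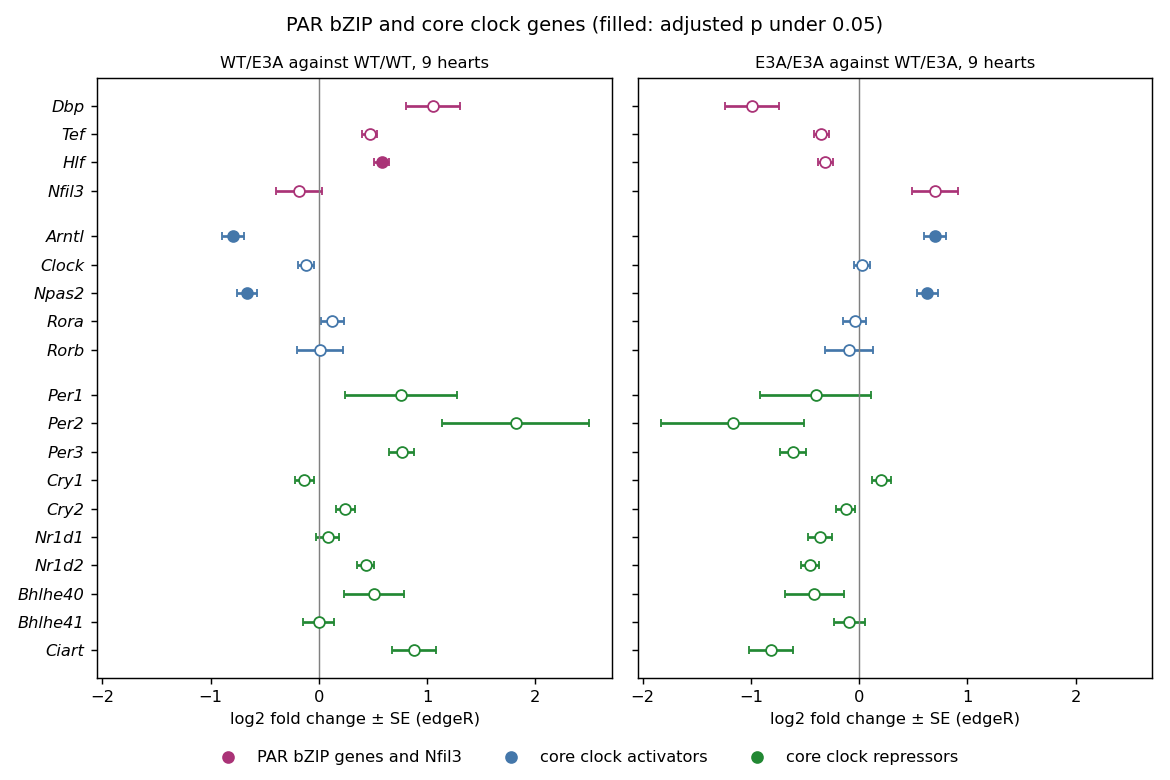
Log2 fold change ± SE (edgeR) of the 4 genes, 5 core clock activators and 10 core clock repressors in the 9 libraries without the note, for WT/E3A against WT/WT (left) and E3A/E3A against WT/E3A (right). Filled symbols passed at an adjusted p under 0.05: Hlf, Arntl and Npas2 on the left, Arntl and Npas2 on the right. Both panels share the 3 WT/E3A hearts.

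Genes downstream of the D-box were looked at next. Of 16 reported PAR bZIP targets, known largely from liver and kidney, 11 were expressed enough in heart to be tested. In WT/E3A against WT/WT with 9 libraries 3 were higher and 8 lower, with a median of -0.10. edgeR called 0, with 3 at an unadjusted p under 0.05. Over all 14373 genes tested in that comparison, 914 had an unadjusted p under 0.05. Alas1, the first enzyme of haem synthesis, stood at -0.03 (SE 0.05), Por, the electron donor of cytochrome P450 enzymes, at 0.16 (SE 0.07), Nr1i3, the xenobiotic receptor CAR, at -0.12 (SE 0.24) and Ddc, the aromatic amino acid decarboxylase, at -0.28 (SE 0.15). In E3A/E3A against WT/E3A 4 were higher and 7 lower (median -0.11, 0 called, 1 at an unadjusted p under 0.05), and in E3A/E3A against WT/WT 3 were higher and 8 lower (median -0.26, 0 called, 3 at an unadjusted p under 0.05). Among 12 other rhythmic output genes, 9 were higher in WT/E3A than in WT/WT (median 0.39, 0 called, 3 at an unadjusted p under 0.05). These include Usp2, a deubiquitinase of the clock, at 0.59 (SE 0.16), Wee1, a cell cycle kinase, at 0.47 (SE 0.14), Tspan4 at 0.29 (SE 0.07) and Tsc22d3, a glucocorticoid-induced gene, at 0.52 (SE 0.36). Of 14 glucocorticoid-responsive genes, 13 were higher (median 0.36, 0 called, 0 at an unadjusted p under 0.05). The 12 immediate early genes, which respond to stimulation within minutes, had 5 higher and 7 lower (median -0.30, 0 called, 1 at an unadjusted p under 0.05). Of 8 tested C/EBP and related bZIP genes, whose proteins bind similar elements, 7 were higher (median 0.13, 0 called, 0 at an unadjusted p under 0.05), with Cebpa at 0.13 (SE 0.14), Cebpb at 1.23 (SE 0.64), Cebpd at 0.24 (SE 0.40) and Cebpg at 0.16 (SE 0.09). Of 8 clock kinases and ubiquitin ligases, 5 were higher (median 0.02, 0 called, 0 at an unadjusted p under 0.05). In E3A/E3A against WT/WT, 9 of the 12 output genes (median 0.15) and 13 of the 14 glucocorticoid-responsive genes (median 0.24) were higher as well. So were 7 of the 8 C/EBP and related genes (median 0.12), and 11 of the 12 immediate early genes were higher there (median 0.48). edgeR called 0 of these, with 2, 1, 2 and 1 at an unadjusted p under 0.05. The lists share genes, such as Klf15 and Per1, so their counts are not separate.

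The genes most alike to each member were found by Pearson's r of log2 CPM over the 9 libraries, among 10284 genes with a mean of at least 5 CPM. These r values are a description: the 9 points share 3 genotypes and their libraries, so they carry genotype as well as the spread between hearts. For Dbp the 3 nearest were Per3 (r = 0.96), Tcap (r = 0.94), of the sarcomere's Z-disc, and Fastkd5 (r = 0.92), of mitochondrial RNA processing. For Tef they were Hlf (r = 0.96), Per3 (r = 0.95) and Plxna4 (r = 0.94), a semaphorin receptor. For Hlf they were Tef (r = 0.96), Per3 (r = 0.93) and Dbn1 (r = 0.92), an actin-binding protein. Per3 was thus first or second for each of the 3 PAR bZIP genes. Nfil3 had other neighbours: Fam222a (r = 0.91), Itsn1 (r = 0.91), a scaffold of endocytosis, and Csnk1e (r = 0.89), a kinase of the PER proteins. Against Arntl, r was -0.82 for Dbp, -0.95 for Tef and -0.90 for Hlf, and 0.44 for Nfil3. Over the 13 libraries the neighbours changed. Those of Dbp were Tef (r = 0.77), Per3 (r = 0.76) and Uckl1os (r = 0.75), those of Tef were Per3 (r = 0.87), Rhobtb1 (r = 0.81) and Per2 (r = 0.81), and the first of Nfil3 were Fam222a (r = 0.90) and Man2b2 (r = 0.88). For Hlf they were Sec23ip (r = 0.98), Kat7 (r = 0.98) and Ctns (r = 0.97), and its r with Tef dropped to 0.40, the noted libraries being low in Hlf and not in Tef.

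**Figure D4:**
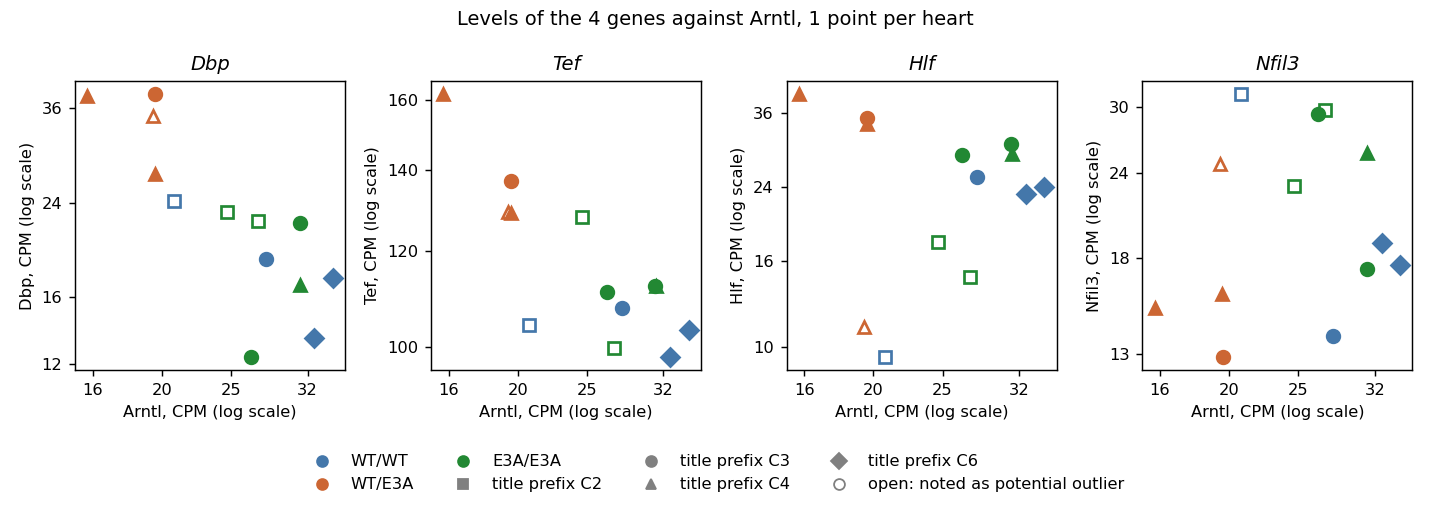
Level of each of the 4 genes against that of Arntl, both as CPM on log axes, with 1 point per heart, genotype as colour, title prefix as shape and the noted libraries open. The 4 WT/E3A hearts lie at 15.7 to 19.6 CPM of Arntl, with the highest Dbp and Tef. In the Hlf panel the 4 open points lie under the rest.

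No pooled correlation with a test is given over the 9 hearts, since WT/E3A lies apart. Within the 6 homozygous hearts, 14 pairs were computed (the 6 pairs of members, and each member with Arntl and with Nr1d1). For Tef with Hlf no pooled value is given, since both separate WT/WT from E3A/E3A in these hearts, and a genotype of 3 hearts is too small to test their relation within it. Centred on the mean of each genotype over the 9 hearts, r was 0.95 for Tef with Hlf, 0.52 for Dbp with Tef, 0.65 for Dbp with Hlf and -0.86 for Dbp with Nfil3, as a description. For Dbp with Nfil3, whose homozygous groups overlap, the 6 hearts gave Pearson's r = -0.64 (exact permutation p = 0.165, adjusted p = 0.592 over 14 pairs) and Spearman's rho = -0.89 (exact permutation p = 0.0333, adjusted p = 0.233). Without the 2 hearts farthest from the median of Dbp, r was -0.36. The relation did not pass, nor, with Tef and Hlf left aside, did any of the remaining 12 pairs (adjusted exact permutation p of at least 0.272).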

How the data were processed

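Poly(A) RNA of 13 mouse hearts was measured, 1 library per heart. The deposited values are whole-number counts of reads for each gene symbol, with a separate file per heart. Per the submitters' processing notes, reads were processed with STAR 2.4.0 and featureCounts 1.4.4 on mm10 (GRCm38). The annotation, the strand setting and the treatment of shared reads are not given in the sources used here. Groups came from the genotype in the labels. Replicate numbers were given in accession order, and p-values measure the spread between these hearts. The members, the lists and the tests were chosen with earlier results of these data known.

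Counts were analysed with edgeR 4.0.16 in R 4.3.3: filterByExpr by genotype, TMM factors, and a robust quasi-likelihood test in 1 model of all 3 genotypes, with Benjamini-Hochberg adjustment over all genes tested and a call at an adjusted p under 0.05. Title prefix, or the outlier note, was added to that model for its own comparison. The standard error is the log2 fold change over the root of F. CPM is TMM scaled over all 13 libraries (0.1 CPM added for correlations). Alternatives were RLE size factors, no low-count filter, DESeq2 1.42.0, limma-voom (limma 3.58.1), the prefix as a block, the note in the model, only the 2 genotypes compared, and leaving out each library. Lengths are exon unions of GENCODE M21, and promoter windows and positions are RefSeq's (GRCm38.p6). No molecular identifiers are mentioned, so counting errors cover counting only. Named genes were the 4 members, every tested core clock gene, called genes of the lists, the first 4 tested of the target, output and bZIP lists, and the 3 genes most alike to each member; other lists are given by counts. One item under this rule is not reported here.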

Additional observations from a re-analysis of the deposited data

Results flagged for a closer look

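The 4 genes and 16 core clock genes were checked for a heart far from the others of its genotype, as 60 sets of a gene and a group over all 13 libraries. By Dixon's test 5 sets had such a heart, and chance alone gives about 1 set in 20. Among the members it was Hlf in WT/WT: replicate 1, a noted library, had 9.49 CPM and the other 3 hearts 23.2 to 25.4 CPM. The same library had 21.2 CPM of Clock, against 86.4 to 87.0 CPM, and 17.6 CPM of Cry1, against 12.6 to 13.4 CPM. The 2 remaining sets concern libraries without the note. WT/E3A replicate 4 had 15.7 CPM of Arntl, against 19.4 to 19.6 CPM in the other WT/E3A hearts, and it was also the heart with the most Tef and Hlf. E3A/E3A replicate 3 had 12.6 CPM of Cry1, against 14.1 to 14.5 CPM in the other E3A/E3A hearts.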

How the results depend on the processing

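The log2 values of the 4 genes under the alternatives kept their sign and their side of the threshold in 235 cases with 13 libraries, 165 with 9 and 61 for the noted libraries. They changed sign in 5, 3 and 3 cases, gained a call in 9 (9 libraries) and 7 (noted), and lost one in 3 and 1. Dbp in E3A/E3A against WT/WT changed sign with the prefix as a block (-0.095 with 13 libraries, -0.084 with 9) and ranged without 1 library from -0.060 to 0.22 (13; below 0 without WT/WT replicate 4 or E3A/E3A replicate 2) and from -0.17 to 0.23 (9; below 0 without WT/WT replicate 4 or E3A/E3A replicate 3). Without 1 library, Hlf in the same comparison ranged from -0.012 to 0.36 (13; below 0 without WT/WT replicate 1), Nfil3 in WT/E3A against WT/WT from -0.47 to 0.040 (13; above 0 without WT/WT replicate 1) and Tef in the noted libraries from -0.10 to 0.025 (above 0 without E3A/E3A replicate 1, WT/E3A replicate 1 or WT/E3A replicate 4). In WT/E3A against WT/WT with 9 libraries, 2 of the 4 genes were called with RLE factors, 2 without the filter, 3 with DESeq2, 0 with the prefix block and 0 to 2 without 1 library, Tef standing at 0.47, 0.47 and 0.47 and Dbp at 1.06 (DESeq2). There Hlf was 0.50 with the block, and without 1 library Hlf ranged from 0.51 to 0.63 and Tef from 0.37 to 0.54. In E3A/E3A against WT/E3A DESeq2 called 3 with 9 libraries (Dbp -1.01, Tef -0.35, Nfil3 0.71). For any prefix the number called without 1 library was 0 to 1 in both fits. In the noted libraries it was 1 to 3, Dbp standing at 0.35 with RLE factors, 0.35 with DESeq2, 0.34 with limma-voom and 0.25 to 0.45 without 1 library, and Nfil3 at 0.38 to 0.65. The cause of these changes was not tested. The prefix comparison could not be fitted without WT/WT replicate 2 in the 9 libraries. No paired analysis was made, since the labels give no pairing of hearts. The only other grouping used from the titles, the prefix, was fitted as a block. Replicate numbers were given in accession order.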
